A study of Lobaria pulmonaria with 11 samples.

Results

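The fungal partner of the tree lungwort lichen Lobaria pulmonaria was compared between thalli after 7 days of daily ultraviolet-B (UV-B) exposure and thalli sampled before irradiation. The members are 5 of the 11 libraries of the series, chosen by their day labels alone: 2 libraries of day 7, at a cumulative UV-B dose of 100.8 kJ/m2, and 3 libraries of day 0, at a dose of 0 kJ/m2. Every other library of the course (3 of day 2 at 28.8 kJ/m2 and 3 of day 11 at 158.4 kJ/m2) entered the fit to estimate the spread. All thalli, those of day 0 included, grew on aspen trunks, were air dried, stored frozen and then rehydrated. In the climate chamber they were kept wet throughout. Irradiated thalli received 3 W/m2 from erythema lamps for 80 min a day, which is 14.4 kJ/m2 daily. The series text calls the libraries biological replicates. No library of wet thalli kept 7 days without UV-B entered the comparison, so UV-B dose and 7 days of wet keeping cannot be told apart.

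A lichen thallus is built by its fungus, the mycobiont, whose dense upper cortex covers and shades the layer of photosynthetic partners. UV-B photons damage DNA by linking neighbouring pyrimidine bases, and they also give rise to reactive oxygen species. In fungi the known answers include DNA repair, antioxidant enzymes and screening pigments, and Lobaria pulmonaria is known to darken its cortex with melanin under UV-B. The deposited transcript IDs are bare numbers, and nothing in the tables ties them to a gene name or function. The members are therefore described by ID, level and pattern, and no function is given to any of them.

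The day 7 libraries held 9708737 and 10183709 fungal counts, and the day 0 libraries held 8848573 to 14909202. Reads aligned to the fungal genome made up 77.8% and 77.6% of the kept reads at day 7, against 71.1% to 81.0% at day 0. Factors of trimmed mean of M-values (TMM) normalization, which correct for the makeup of a library, were 1.01 and 0.947 at day 7 and 1.16 to 1.27 at day 0. Levels below are CPM, a transcript's counts scaled to an equal library size (1000000) after TMM. They are not corrected for transcript length, so they compare libraries and not transcripts. In bulk thalli, a smaller amount of fungus and less RNA per fungal cell cannot be told apart. The 2 day 7 libraries differed by a median of 0.29 on the log2(CPM + 0.5) scale over 9516 transcripts with a mean of 50 or more counts, against 0.23 to 0.32 for the 3 pairs of day 0 libraries. At least 2-fold apart were 10.8% of these transcripts in the day 7 pair, 6.21% to 9.11% in the day 0 pairs and 8.55% to 13.6% in the pairs of days 2 and 11. With 2 libraries at day 7, neither can be named as the one that departs.

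After 7 days, 2116 of 12089 tested fungal transcripts (17.5%) differed from day 0 by edgeR's quasi-likelihood test with Benjamini-Hochberg adjusted p under 0.05. At an unadjusted p under 0.05 there were 4139 (34.2%). Higher at day 7 were 1166 (9.65% of those tested) and lower were 950 (7.86%). Transcripts called higher had a median log2 fold change of 1.13 and those called lower one of -1.80, which is 2.20-fold and 3.47-fold; over all tested transcripts the median size of the change was 0.54. The called set includes 9 lower transcripts with no count at day 7 and 3 higher ones with none at day 0, whose fitted folds are not measured sizes. With these at the bound that 3 counts per library give, the medians were 2.20-fold and 3.47-fold again. Transcripts called lower also had larger standard errors (median 0.41, against 0.25 for those called higher), and among the calls past 2-fold described below the rises had the larger median. The numbers of calls rest on single libraries. Leaving out day 7 replicate 1 gave 983 calls (665 higher, 318 lower) and leaving out day 7 replicate 2 gave 585 (397 higher, 188 lower). Among the day 0 libraries, leaving out replicate 1 gave 764 higher calls, leaving out replicate 2 gave 1141 calls (595 higher, 546 lower) and leaving out replicate 3 gave 1307 (637 of them higher). The split also rests on the scaling: scaled by library totals, all tested transcripts had a median log2 fold change of -0.35 (with TMM -0.02), and 24.0% of the calls were higher (with TMM 55.1%).

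Nearly every call had both day 7 libraries on the side of the call. The calls were made from these same libraries, so such agreement is largely built into them and is a description. In 2112 of the 2116 called transcripts, both libraries lay on the called side of the day 0 mean, against 9521 of all 12089 tested transcripts. Both day 7 libraries lay beyond all 3 day 0 libraries in 2104 called transcripts, 1157 higher and 947 lower. Over all tested transcripts the groups did not overlap in 53.7%, with day 7 higher in 27.5% and lower in 26.2%, so the lack of overlap is common here and by itself marks no transcript out. With day 0 replicate 2 or 3 left out, 1141 or 1307 calls had no overlap in place of 2104. These were all the calls of those fits, so fewer transcripts were called and the calls were not less separate. With either day 7 library left out, all calls likewise had no overlap, which a single library on that day makes easy to meet.

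**Figure D1:**
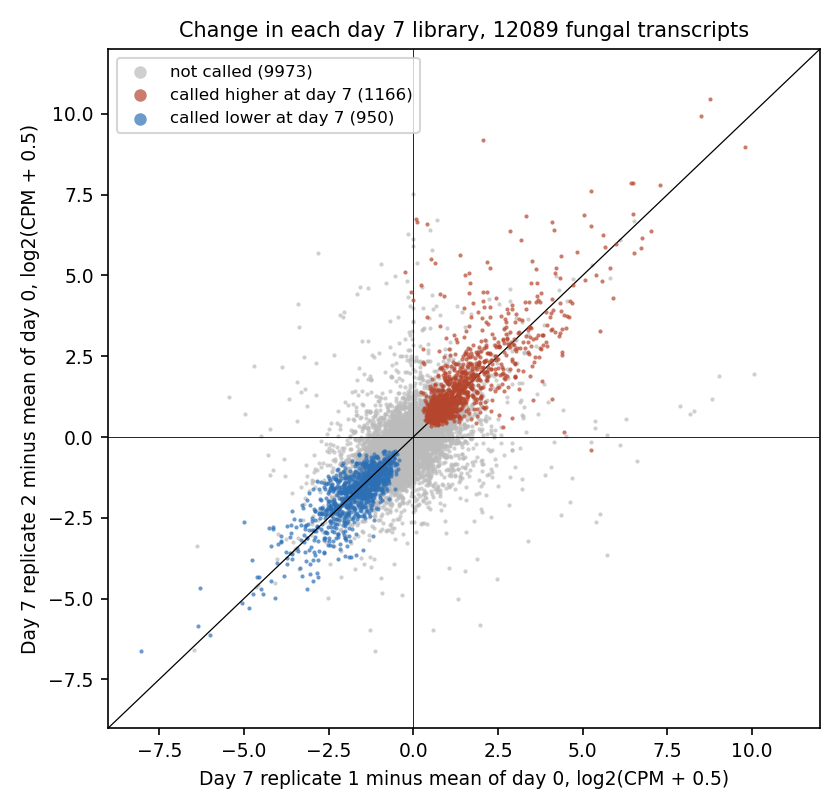
Each point is a tested fungal transcript, placed by its difference from the day 0 mean in day 7 replicate 1 (horizontal) and day 7 replicate 2 (vertical), both on the log2(CPM + 0.5) scale; the line marks equal change. Of the 2116 called transcripts, 2112 lie where both libraries are above or both below the day 0 mean, and 44 have libraries at least 4-fold apart and lie well off the line. Over all 12089 tested transcripts, 442 are at least 4-fold apart.

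Size held less well than direction. Both day 7 libraries were at least 2-fold from the day 0 mean in 535 of the transcripts called higher (45.9%) and in 721 of those called lower (75.9%), on the log2(CPM + 0.5) scale, against 15.7% of all tested transcripts. A single day 7 library reached 2-fold in 272 higher and 157 lower transcripts of the 2116 called, against 2314 of the 12089 tested. Neither did in 359 and 72, against 7879 of those tested. Among called transcripts that reached 2-fold in a single library, the higher ones did so in replicate 2 more often than in replicate 1 (179 against 93). The lower ones were split evenly (78 against 79). Over all tested transcripts it was replicate 2 in 1225 and replicate 1 in 1089. A stricter view sets the nearest day 7 and day 0 libraries against each other, with libraries under 3 counts raised to 3. By this gap, 416 transcripts called higher and 570 called lower were at least 2-fold apart, against 1269 of all 12089 tested, called ones included. At least 4-fold apart were 153 and 141, against 341 of all tested. At least 8-fold apart were 65 and 39, against 118 of all tested. The median gap was 1.67-fold in the higher and 2.30-fold in the lower transcripts, against 1.03-fold over all tested.

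A test against a 2-fold change in place of no change (edgeR's glmTreat, adjusted p under 0.05) kept 268 transcripts (2.22%), 155 higher (1.28%) and 113 lower (0.935%). All 268 had day 7 libraries beyond the day 0 libraries, and 154 of the 155 and all 113 were at least 2-fold from the day 0 mean in both libraries. The test chose them from these same libraries, so this too is a description. Their median log2 fold change was 3.42 in the higher and -3.25 in the lower transcripts. With day 7 replicate 1 or 2 left out, 148 or 60 passed this test (120 or 56 of them higher), and with day 0 replicate 1, 2 or 3 left out, 139, 76 or 112 passed it. Scaled by library totals, 31.3% of 396 such calls were higher in place of 57.8%.

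The test was also run with each day 7 library alone, which leaves 1 library on that day and assumes that it varies like those of the other days. Called with replicate 1 alone and also with replicate 2 alone were 366 of the 2116 transcripts (17.3%), 266 higher and 100 lower. Both libraries were at least 2-fold from day 0 in 330 of them, and their median change was 2.24 on the log2 scale. A further 677 were called with 1 of the libraries and not the other, and 1073 (50.7%) with neither. Those called with neither were close between the libraries (median difference 0.22 on the log2 scale, against 0.54 in those called with 1 library) and smaller in size (median 1.24). Of the 366 transcripts, 365 were also called under each of the 3 fits that leave out a day 0 library.

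The transcripts that rose held a far larger part of the fungal RNA at day 7. They took 27.8% and 30.8% of the fungal counts in the day 7 libraries, against 11.8%, 11.6% and 11.5% in the day 0 libraries. The transcripts that fell took 2.80% and 2.74% at day 7, against 11.4%, 11.5% and 11.5% at day 0. These shares use raw counts without TMM factors. The transcripts were chosen by this same contrast, with TMM scaling, so the choice rests on the scaling and the shares are a description. In the libraries that the contrast did not use, the transcripts called higher held 15.7% to 20.2% at day 2 and 25.9% to 29.7% at day 11, and those called lower held 5.89% to 8.58% and 2.46% to 3.32%. The day 11 libraries thus lay near those of day 7 on both measures and the day 2 libraries lay between day 0 and day 7.

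**Figure D2:**
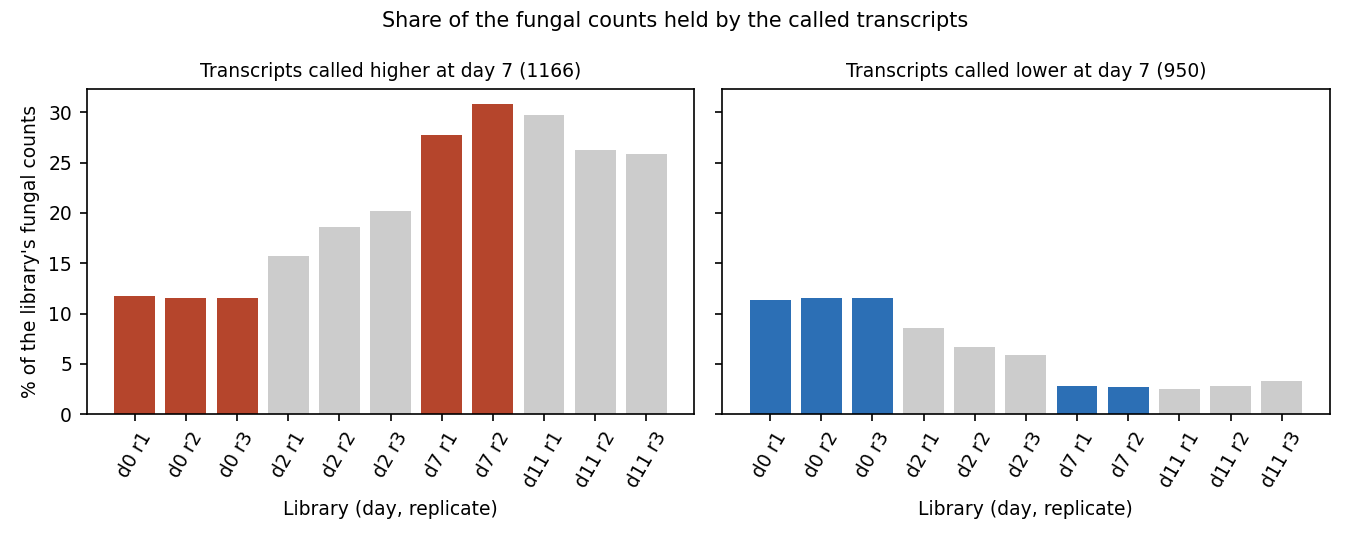
Bars give, for each of the 11 libraries in order of day, the percentage of its fungal counts held by the transcripts called higher (left, red at days 0 and 7) and lower (right, blue at days 0 and 7) in the comparison of day 7 with day 0. The day 7 libraries reach 27.8% and 30.8% on the left and 2.80% and 2.74% on the right, and all 3 day 0 libraries lie near 11.5% on both sides.

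Rises were called more often among transcripts with high levels at day 2, which is in neither arm of the comparison. Transcripts were ordered by their mean CPM in the 3 day 2 libraries, a choice made after seeing the data, and divided into 4 groups of 3022 or 3023. In the highest group 560 transcripts (18.5%) were called higher and 175 (5.79%) lower. In the next group these were 359 (11.9%) and 231 (7.64%), in the next 172 (5.69%) and 300 (9.93%), and in the lowest 75 (2.48%) and 244 (8.07%). Standard errors of the fitted change had a median of 0.24 in the highest and 0.64 in the lowest group, so a change of a given size is less readily called in the lowest. Both day 7 libraries showed the same order of medians. The median difference from day 0 was 0.26 and 0.28 in the highest group, 0.12 and 0.15 in the next, -0.12 and -0.14 in the next and -0.38 and -0.53 in the lowest, for replicates 1 and 2 in turn. With library totals the fitted medians were -0.05, -0.20, -0.47 and -0.92, so the sign in the upper groups rests on the scaling while the order does not.

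The pattern differs with the day used for the order. A transcript that rises moves itself up any order that includes the later days, and how much of the pattern this makes was not tested. Ordered by day 0 level, where falls have the like effect, 401 transcripts (13.3%) were called higher and 268 (8.87%) lower in the highest group, against 148 (4.90%) and 148 in the lowest. The fitted medians in this order were 0.15, 0.12, -0.12 and -0.38 from the highest group to the lowest. Among the 100 transcripts with the highest level the balance of calls turned with the day: 9 were called higher and 18 lower when ordered by day 0, and 21 higher and 9 lower when ordered by day 2.

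**Figure D3:**
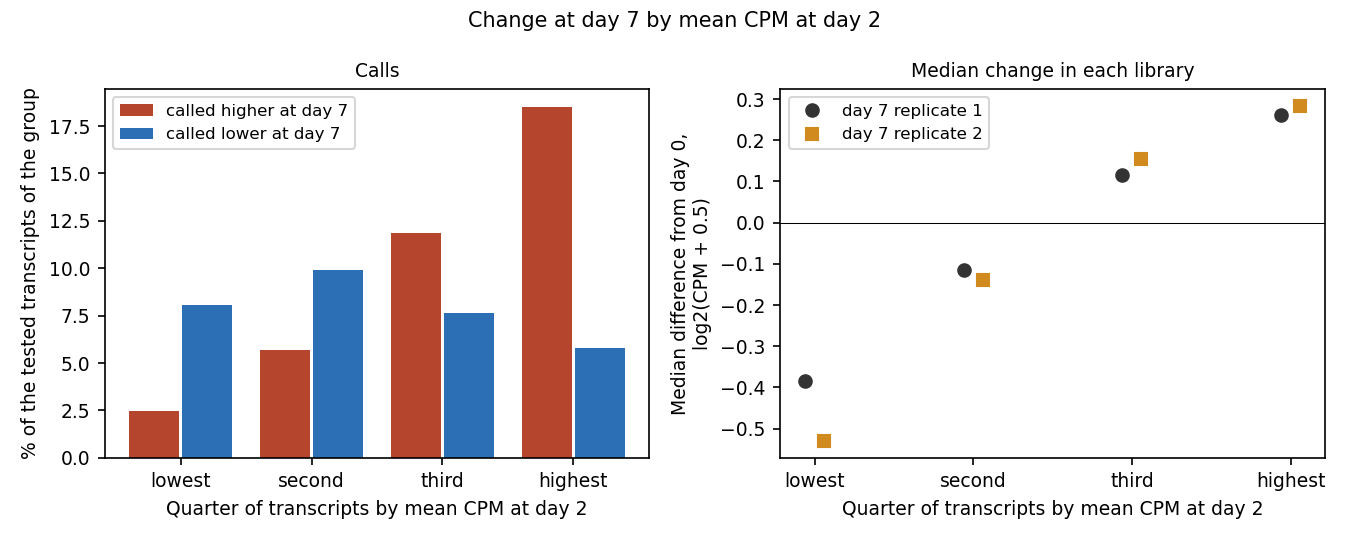
Left, the percentage of tested transcripts called higher (red) and lower (blue) at day 7 in 4 equal groups ordered by mean CPM in the day 2 libraries; right, the median difference from the day 0 mean in each day 7 library on the log2(CPM + 0.5) scale. Calls of higher transcripts make up 2.48% of the lowest and 18.5% of the highest group; ordered by day 0 level, which is not plotted, they make up 4.90% and 13.3%.

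By a fixed rule 2 transcripts that rose and 2 that fell are named, out of 1113 higher and 822 lower transcripts with a mean of 50 or more counts and no overlap between the groups. Transcript 1260918 had the widest gap among the rises. It stood at 1440 and 4722 CPM in the day 7 libraries, against 3.72, 1.97 and 3.13 CPM in the day 0 libraries. The counts behind these levels were 14089 and 45527 at day 7 and 55, 37 and 35 at day 0. Even the nearest libraries of the 2 days were 387-fold apart, although the day 7 libraries themselves differed widely (3081 ± 2320 CPM, SD, n = 2, against 2.94 ± 0.890 CPM at day 0, n = 3). Day 7 differed from day 0 by 10.04 on the log2 scale (SE 0.92, edgeR adjusted p = 0.00109). At day 2 its libraries held 3.99, 21.8 and 13.2 CPM and at day 11 they held 2479, 988 and 1422 CPM. The difference of day 7 from day 2 was 7.88 on the log2 scale (SE 0.84, edgeR adjusted p = 0.00366), while that of day 7 from day 11 was 0.92 (SE 0.67, adjusted p = 0.997).

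Transcript 1163291 gained the most CPM of the 1113. It had 6322 and 7413 CPM at day 7, against 187, 96.3 and 110 CPM at day 0. The day 7 libraries were close to each other and far above every day 0 library, at a mean of 6868 ± 772 CPM (SD, n = 2) against 131 ± 48.7 CPM (n = 3). The rise came to 5.71 on the log2 scale (SE 0.94, edgeR adjusted p = 0.00585). In the count order of all transcripts, which is not corrected for length, it stood at place 3 and place 2 in the day 7 libraries and at places 982, 2213 and 1856 in the day 0 libraries. Day 2 libraries held 79.3, 94.3 and 580 CPM, so that replicate 3 alone was above the day 0 range, and day 11 libraries held 13271, 24670 and 6868 CPM. Day 7 exceeded day 2 by 4.77 on the log2 scale (SE 0.90, edgeR adjusted p = 0.0190), and the difference from day 11 was -1.12 (SE 0.87, adjusted p = 0.997).

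Transcript 388621 lost the most CPM of the 822. Its level was 611 and 370 CPM in the day 7 libraries, against 6171, 5852 and 6460 CPM in the day 0 libraries. The day 0 libraries were within a narrow range and every one was far above both day 7 libraries (490 ± 170 CPM, SD, n = 2, against 6161 ± 304 CPM, n = 3). Day 7 differed from day 0 by -3.65 on the log2 scale (SE 0.47, edgeR adjusted p = 0.00253). By counts it held place 191 and place 465 of all fungal transcripts at day 7, and place 2, 1 and 1 at day 0. Day 2 libraries held 2892, 1986 and 1883 CPM, below all day 0 libraries and above both day 7 libraries, and day 7 differed from day 2 by -2.20 (SE 0.44, edgeR adjusted p = 0.0228). Day 11 libraries held 335, 599 and 869 CPM, a range that takes in both day 7 libraries (log2 difference -0.29, SE 0.40, adjusted p = 0.998).

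Transcript 1185441 had the widest gap among the falls, with libraries under 3 counts not raised to 3. It received 0 and 2 counts in the day 7 libraries, against 606, 687 and 484 counts in the day 0 libraries, which is 0 and 0.207 CPM against 41.0, 36.6 and 43.3 CPM. Summed over libraries, day 7 held 0.259% of the day 0 level, with a 95% exact (Clopper-Pearson) interval from 0.0314% to 0.938% that covers counting error only. The fit put the fall at -8.47 on the log2 scale (SE 2.25, edgeR adjusted p = 0.0327), which is imprecise at so few counts. At day 2 replicates 1 and 3 had 610 and 588 counts, near the day 0 libraries, and replicate 2 had 2 counts, as few as day 7; the day 11 libraries had 3, 3 and 2. Its difference between day 7 and day 2 was not called (adjusted p = 0.0621). The call against day 0 was lost without any one of the 5 libraries compared: with day 7 replicate 1 or 2 left out, adjusted p reached 0.162 or 0.142, and with day 0 replicate 1, 2 or 3 left out it reached 0.0549, 0.0627 or 0.0630. With the replicate block it was 0.0652.

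**Figure D4:**
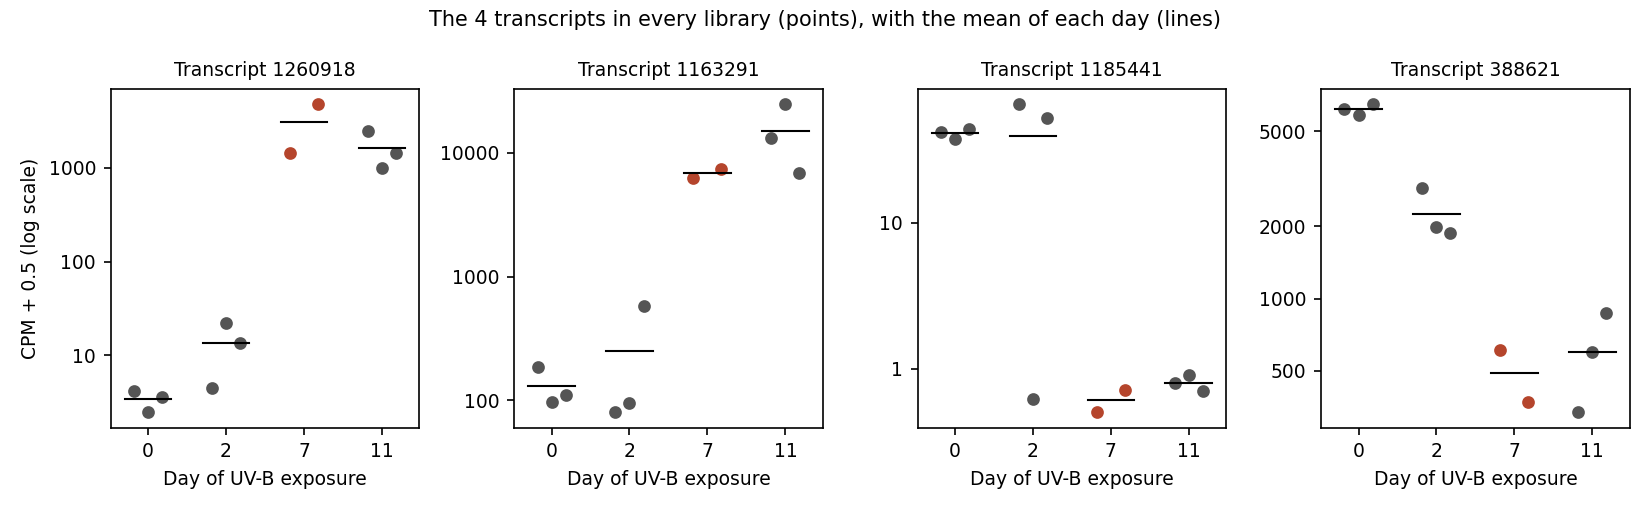
The panels give CPM + 0.5 on a log axis for transcripts 1260918, 1163291, 1185441 and 388621, with 1 point per library by day and a line at the mean of each day; day 7 is in red. In all 4 panels both day 7 points lie beyond every day 0 point, and for 1185441 a single day 2 library sits at the level of day 7.

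The transcripts next in order of the gap follow, with the gap taken in CPM and libraries under 3 counts not raised to 3. Among the falls this order rests on very few counts at day 7. The second rise had 3725 and 2104 CPM at day 7, against 6.76, 2.72 and 2.68 CPM at day 0, a gap of 311-fold. The third had 1947 and 5220 CPM at day 7, against 2.71, 5.97 and 6.88 CPM at day 0, a gap of 283-fold. For these and the rises at places 4 and 5, no day 2 library passed 56.0 CPM. Among the falls, the second had 0.102 and 0 CPM at day 7, against 7.51, 17.5 and 8.94 CPM at day 0. The third, with 0.102 and 0.207 CPM at day 7 against 11.2, 22.0 and 10.6 CPM at day 0, was back at 17.9 to 30.3 CPM in the day 11 libraries, whereas the falls at places 2, 4 and 5 stayed under 0.8 CPM there.

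Full onset or loss of detection was rare. Of 15607 listed transcripts, 3 had no count in any day 0 library and 10 or more in both day 7 libraries, and 6 had 10 or more in every day 0 library and none at day 7. The clearest onset had 91 and 109 counts at day 7, which is at least 49.0-fold above the level of 3 counts per library at day 0. It also had 210 counts in day 2 replicate 2 and 0 in the other two day 2 libraries, and 2, 69 and 0 at day 11. None of the 3 onsets was called (edgeR adjusted p = 0.0858 to 0.125). Of the 6 losses 4 were called. The loss most even at day 0 had 0 and 0 counts at day 7 and 55, 60 and 55 counts at day 0, at least 12.8-fold lower (adjusted p = 0.00407), with 10, 12 and 6 counts at day 2 and none at day 11. Detection in a single day 7 library was counted as well. With no count at day 0, 2 transcripts had 10 or more counts in day 7 replicate 1 and none in replicate 2, and 8 the reverse. With 10 or more counts in every day 0 library, 23 had none in replicate 1 but some in replicate 2, and 27 the reverse. Any count in the other library was enough here. Transcript 1185441, with 0 and 2 counts at day 7, meets this rule although it was low in both libraries. These numbers therefore do not measure how far the day 7 libraries disagree on losses.

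A minority of calls rest on day 7 libraries that were far apart. The day 7 libraries differed at least 2-fold in 140 of the transcripts called higher (12.0%) and 70 of those called lower (7.37%), against 12.7% of all tested. At least 4-fold apart were 43 higher transcripts and 1 lower one of the 2116 called, against 442 of the 12089 tested. At least 8-fold apart were 22 called transcripts, all higher, against 185 of those tested. The calls were thus no more uneven than the tested transcripts as a whole. In 20 of the 22 called transcripts, replicate 2 was the higher library. The most uneven had 1.94 and 349 CPM at day 7, against 0.135, 0.0533 and 0.0894 CPM at day 0. The third most uneven had 0.102 and 56.3 CPM at day 7, against 0, 0.107 and 0.0894 CPM at day 0, and 95.2, 73.6 and 97.0 CPM at day 2, but no more than 0.301 CPM at day 11. The fourth showed the same layout, with 0.204 and 51.0 CPM at day 7 and 76.7 to 113 CPM at day 2. In both, day 7 replicate 1 stood at the level of day 0 and day 11, and replicate 2 was nearer to day 2. By limits set after seeing the data, 6 tested transcripts, 5 of them called higher, had 2 CPM or more in every day 2 library and in day 7 replicate 2, and under 1 CPM in day 7 replicate 1 and in every library of days 0 and 11. None had the reverse, with replicate 1 in place of replicate 2. Whether the thalli behind the day 7 libraries differed in more than their replicate number was not tested. In 12 called transcripts, 9 higher and 3 lower, at least 1 day 7 library fell within or beyond the day 0 range, and 4 of these, all called higher, had 1 day 7 library at or below the day 0 mean.

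Most tested transcripts were not called, and the data bound only part of them. Of the 9973 that were not, 3670 (36.8%) had a 95% interval of the log2 fold change that lay within 2-fold on either side. For 1215 the interval took in both a 2-fold rise and a 2-fold fall, so neither can be excluded at this depth and spread. Direction is also open for any other transcript whose interval takes in no change. Another 538 were at least 2-fold from the day 0 mean in both day 7 libraries with no overlap, and yet were not called. Their median adjusted p was 0.0949 and their median level over the 11 libraries was 7.06 CPM, against 27.6 CPM for all tested transcripts.

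Far more transcripts were called between day 7 and day 2 than between day 7 and day 11. Against day 2, 673 transcripts (5.57%) were called, 270 higher (2.23%) and 403 lower (3.33%) at day 7, with median log2 differences of 1.96 and -1.69. The number depends on the fit: with the libraries of days 2 and 7 alone the calls numbered 113 (51.3% in the higher direction, against 40.1% in the fit of all libraries), with the replicate block 263, and by DESeq2 1673. Against day 11 no transcript was called by edgeR (smallest adjusted p = 0.0501), with 622 (5.15%) at an unadjusted p under 0.05, and DESeq2 called 70. The median size of the difference over all tested transcripts was 0.43 against day 2 and 0.23 against day 11, with median standard errors of 0.34 in both. At an unadjusted p under 0.05, 2771 (22.9%) differed from day 2. These comparisons share the day 7 libraries with each other and with the comparison to day 0. Against day 2, 219 calls (138 of them higher) were left when day 7 replicate 1 was dropped and 127 (90 of them higher) when day 7 replicate 2 was dropped. Dropping day 2 replicate 1 or 3 left 332 or 419, and dropping day 0 replicate 1 left 438. Against day 11, dropping day 7 replicate 1 or 2 gave 14 or 3 calls, dropping day 2 replicate 1 or 2 gave 3 or 1, and dropping day 0 replicate 1 gave 1.

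In all, 14 transcripts (0.116%), 1260918 among them, differed at day 7 from the mean of days 2 and 11, 10 higher (0.0827%) and 4 lower (0.0331%) (edgeR adjusted p = 0.0193 to 0.0468, with 1344, or 11.1%, at an unadjusted p under 0.05). A transcript that changed after day 2 and then stayed can pass this test, and none of the 14 was called against day 11 by itself. The highest of them, in order of the difference, had 2581 and 3682 CPM at day 7, with 10.6, 10.3 and 21.0 CPM at day 2 and 505, 121 and 1574 CPM at day 11. Its day 7 level was above all 9 other libraries, those of day 0 (21.1, 14.5 and 13.1 CPM) included. Of the 14, 10 had both day 7 libraries outside the range of all 6 libraries of days 2 and 11. The rest, 1260918 among them, overlapped the day 11 libraries. The strongest dip had 8.08 and 7.99 CPM at day 7, with 110, 92.4 and 66.9 CPM at day 2 and 19.4, 25.3 and 30.2 CPM at day 11 (log2 difference -2.56, SE 0.25, edgeR adjusted p = 0.0193); its day 0 libraries held 74.6, 84.2 and 82.6 CPM. Another of the lower ones was raised on every irradiated day, with 30.2 to 35.9 CPM at day 0, 618 to 1060 CPM at day 2, 150 and 134 CPM at day 7 and 413 to 902 CPM at day 11. This small set depends on the libraries in the fit. It numbered 38 when day 7 replicate 1 was dropped, 3, 2 or 8 when day 0 replicate 1, 2 or 3 was dropped, 5 or 1 when day 2 replicate 1 or 3 was dropped, 5 when day 11 replicate 3 was dropped, and 0 when all day 0 libraries were. It was also 0 with the replicate block, 33 with library totals, 36 with the stricter filter on low counts and 416 by DESeq2. Over all tested transcripts, 252 (2.08%) had both day 7 libraries above all 9 others and 223 (1.84%) below.

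**Figure D5:**
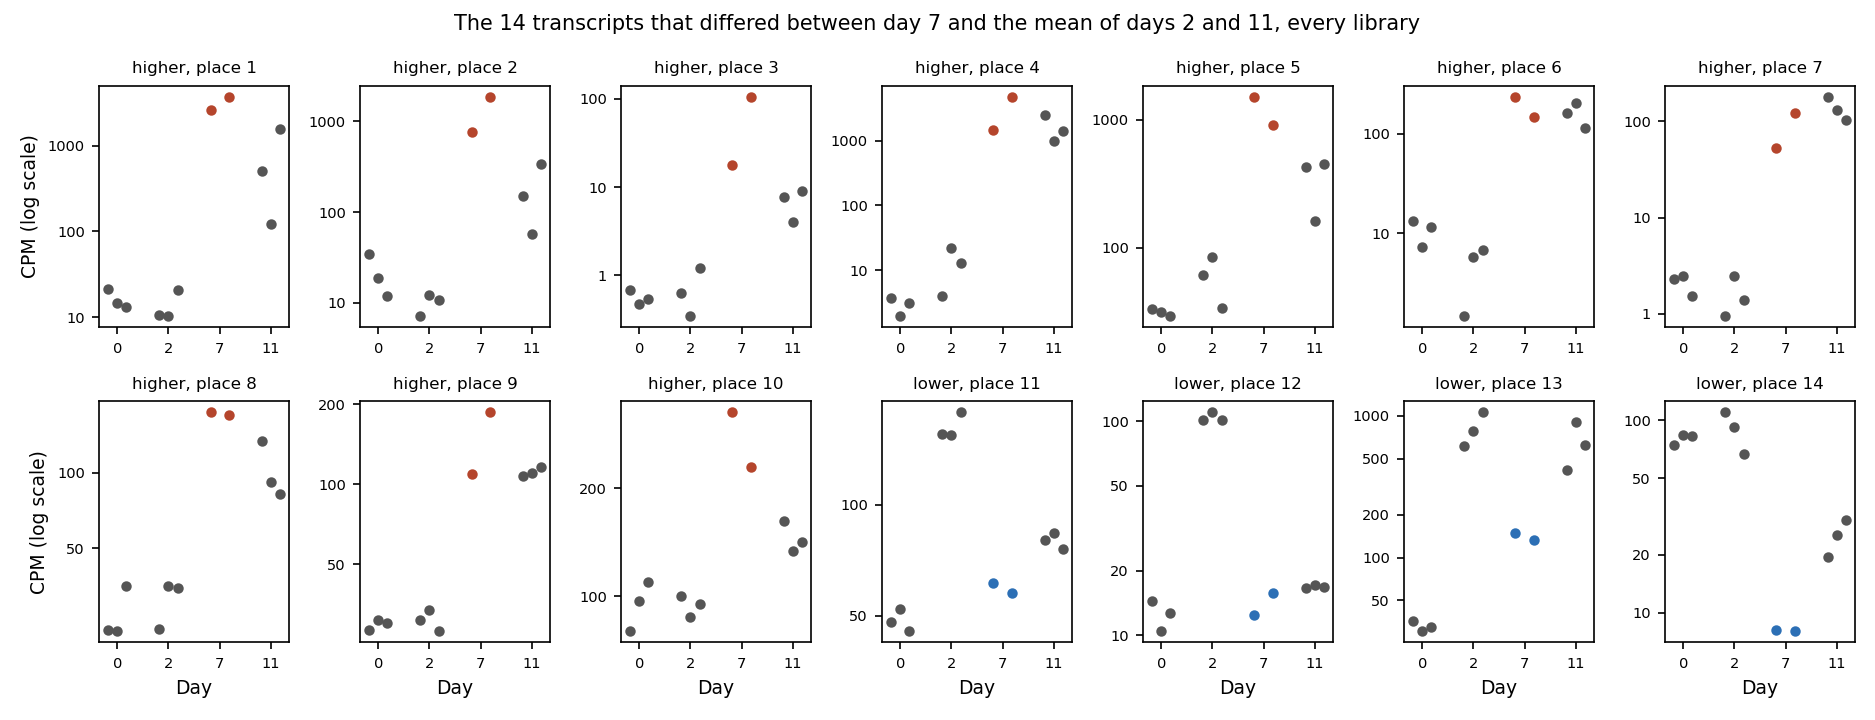
Each panel is 1 of the 14 transcripts called between day 7 and the mean of days 2 and 11, in order of the difference, with CPM on a log axis and 1 point per library by day; day 7 is red where higher and blue where lower. The first panel shows the day 7 libraries at 2581 and 3682 CPM above all others, and the last shows them at 8.08 and 7.99 CPM below all others.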

How the data were processed

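RNA from whole thalli was read as polyadenylated, directional, single-end libraries, per the labels' protocols. The authors deposited raw counts per transcript and library, and a table of read counts before and after trimming and per genome, per the file headers. Per the submitters' processing notes, the tools were edgeR, HTSeq 0.5.4, HISAT2, Trimmomatic 0.39 and FastQC 0.11.8. The sources used here do not give the genome build, gene models or strand setting. Overlapping or near-identical transcripts are therefore uncertain. The algal counts were not used here.

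The counts were tested in R 4.3.3 with edgeR 4.0.16 (TMM, default expression filter by day, robust quasi-likelihood fit) in 1 fit over 11 libraries, which kept 12089 of 15607 transcripts. Calls needed an adjusted p (Benjamini-Hochberg, per comparison) under 0.05. Standard errors are the absolute log2 fold change over the square root of F. Single-library changes use log2(CPM + 0.5). Transcripts with a mean of 50 or more counts over the 5 libraries, called and without overlap between the days, were named for the largest gap between the nearest libraries and for the largest difference in mean CPM, in each direction. The procedure was tested on simulated counts with a small set of planted changes at day 7, as many rises as falls. Such balanced changes do not test the scaling on which the split of rises and falls rests. Alternatives were edgeR's size factors (RLE), library totals, DESeq2 1.42.0, no filter, a stricter filter (mean of 50 counts), only the days compared, a replicate block, a fit that was not robust, and each library left out. The comparison and the rules were chosen with earlier results of these data known.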

Additional observations from a re-analysis of the deposited data

Results flagged for a closer look

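Day 7 and day 2, which differ both in UV-B dose and in days of wet keeping, were not alike: a test of the difference itself called 673 transcripts between them, and 113 when only their own libraries were fitted. At day 7, 14 transcripts differed from the mean of days 2 and 11, but 0 did with the replicate block or without the day 0 libraries. None of the 14 was called against day 11 by itself in the fit of all libraries. Of the named transcripts, 3 differed between day 7 and day 2 by that test: 1260918 by 7.88, 1163291 by 4.77 and 388621 by -2.20 on the log2 scale. No group had the 4 or more libraries that a search for outlying libraries needs.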

How the results depend on the processing

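Transcripts 1260918, 1163291 and 388621 kept their direction and their call under all 19 alternatives (largest adjusted p 0.00975, 0.0275 and 0.0261), and 1185441 kept its direction under all 19 and its call under 13. Over the fits that leave out 1 library each, the calls against day 0 ran from 585 to 2365, the higher ones from 397 to 1303, the lower ones from 188 to 1062, those past 2-fold from 60 to 327 and those without overlap from 585 to 2356; calls against day 2 ran from 127 to 653, against day 11 from 0 to 14 and against the mean of days 2 and 11 from 1 to 38. With library totals 535 were higher and 1694 lower than at day 0, 1 differed from day 11 and 33 from the mean of days 2 and 11. DESeq2 called 1459 lower than at day 0, 1673 against day 2, 70 against day 11 and 416 against the mean. Without a filter 1 transcript was called against day 11; with the stricter filter 1 and, against the mean, 36. With only the days compared, 113 were called against day 2 and 0 against the mean. Of the 2116 calls, 2101 were shared by DESeq2 in the same direction (3142 calls), 1485 by library totals and 1423 by the fit of days 0 and 7 alone (1711 calls). Whether the replicate numbers pair the libraries is not settled by these data. Deviations from the day means of same-numbered libraries correlated over 0.1 in 5 of 15 pairs (-0.106 to 0.406). The highest values were for replicate 2 of days 2 and 7 (0.406) and replicate 2 of days 0 and 2 (0.271). Of 11 libraries, 5 correlated best with their own number. With the replicate block there were 1317 calls against day 0, 725 higher and 592 lower, 125 past 2-fold and 1307 without overlap, with 263 against day 2, 1 against day 11 and 0 against the mean. The cause of these shifts was not tested. Leaving out a day 7 library leaves 1, and 2 libraries limit every day 7 mean. The test past 2-fold was not run in DESeq2.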
